A study of Mus musculus with 16 samples.

Results

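The unstressed effect of losing Trbp was read from 8 ventricles of the 16 in the series: 4 Trbp-cKO sham hearts and 4 control sham hearts, chosen by their labels alone. All 8 male mice carried Trbp-fl/fl and the αMHC-MerCreMer transgene, in which a promoter active in cardiomyocytes drives a Cre recombinase that works only in the presence of tamoxifen. To delete the gene, Trbp-cKO mice were treated at 4 weeks of age with 5 daily doses of tamoxifen (30 mg/kg); controls, of the same genotype, received corn oil. Both groups underwent sham surgery, an operation without constriction of the aorta, and the hearts were taken 8 weeks later, at the age of 16 weeks. Because every mouse with the deletion had received tamoxifen and no control had, the deletion and the drug cannot be told apart here. The labels do not give the time of day at which a heart was taken, and each library held 1 heart. The other 8 hearts, from the same kinds of mice after transverse aortic constriction (TAC), are used below only to ask whether a difference seen in sham hearts was also present in hearts under pressure overload.

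Trbp, encoded by Tarbp2, binds double-stranded RNA. It works beside Dicer, the enzyme that cuts microRNA precursors, and it restrains PKR, a kinase that double-stranded RNA switches on during viral infection. The circadian clock, whose genes held several of the widest differences, is a feedback loop: the pair Arntl (Bmal1) and Clock activates genes that carry E-boxes, among them the Per and Cry repressors, Nr1d1, Ciart and Dbp. Nr1d1 in turn represses Arntl and Nfil3 through ROR elements, and Dbp, Tef and Hlf compete with Nfil3 at D-boxes. Immediate early genes are those that cells transcribe within minutes of a stimulus, and heat shock genes encode chaperones that rise when proteins unfold.

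Total counts per sham heart lay between 45166994 and 68274222, and transcripts of the mitochondrial genome took 22.7 to 26.3% of them. All 12 cardiomyocyte markers looked up were detected, with a summed level of 68100 to 72400 CPM (counts as parts of each library's scaled total) in control sham and 56100 to 67000 CPM in Trbp-cKO sham hearts. Without Tnnc1 and Myl3, members described below that fell, the sums overlapped, at 62400 to 66600 and 54200 to 65200 CPM. Trbp-cKO sham replicate 3 stood apart from the other sham hearts, with 9590 CPM summed over the calcium handling genes against 14600 to 18700 CPM in the other 7. Among TAC hearts the same sum was 4630 to 5710 CPM in control TAC replicates 1 and 2 and Trbp-cKO TAC replicate 4, against 12700 to 14200 CPM in the other 5. These 3 TAC hearts enter the shared estimate of spread, and the counts of all called genes, of core clock, immediate early and heat shock genes, and of genes compared with TAC hearts are given with and without them.

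Of 19955 genes tested, 193 (0.967%) were called, that is, they passed both an adjusted p of 0.05 and an absolute log2 fold change of 0.8, the study's own thresholds. Levels were higher in Trbp-cKO sham hearts for 102 genes (0.511%) and lower for 91 (0.456%). Of the called genes, 157 were protein coding. The 4 hearts of one group lay wholly above or below the 4 of the other for 188 of the 193. That was so for 2933 (14.7%) of all genes tested, and 2733 (13.7%) had an unadjusted p under 0.05 in the edgeR fit. Of the 193, 52.8% were higher. With plain library sizes in place of TMM factors, 281 genes were called, 73% of them higher, and the median of all genes went from 0.01 to 0.11. Without the 3 TAC hearts that stood apart, 490 genes were called, including 192 of the 193. Leaving out single sham hearts gave 74 to 130 calls, and 53 genes were called each time. Below, "rose" and "fell" are used only of called genes, and every log2 fold change is Trbp-cKO minus control.

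Tarbp2 fell in every Trbp-cKO sham heart. Its level was 30.6, 32.7, 33.3 and 32.4 CPM in control sham hearts and 9.09, 8.39, 11.4 and 9.21 CPM in Trbp-cKO sham hearts, so the groups were far apart and each was tight. The log2 fold change was -1.76 ± 0.14 (SE, n = 4 per group; adjusted p = 2.38e-05), a 3.38-fold lower level, and the exact two-sided permutation test of 4 hearts against 4 gave p = 0.0286, the smallest it can give. The gene lies at chr15:102518192-102523676 on the plus strand of GRCm38. What remained cannot be assigned to a cell type in RNA from whole ventricle, where fewer cells of a type and less RNA per cell cannot be told apart either. Gm18584, a processed pseudogene that shares 70% of its 75-base windows with Tarbp2 and other genes, fell with it (-1.81 ± 0.39) at under 1 CPM, a call lost in each fit that left out a sham heart, and reads of the pair may have been split between them.

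Of 19 tested genes for Trbp's partners, microRNA processing and PKR, Tarbp2 alone was called. Dicer1, which makes microRNAs from their precursors, differed by 0.05 on the log2 scale (adjusted p = 0.876). Prkra, the close relative of Trbp that also binds Dicer, differed by 0.06 (adjusted p = 0.92). Eif2ak2, which encodes PKR, stood at 0.41 with the groups apart, but its adjusted p was 0.0621. The median of the list was -0.03, beside 0.01 for all genes tested.

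Sarcomere genes were called in both directions. Of 17 genes listed for the slow-twitch and cardiac sarcomere, 4 fell and none rose, beside 0.456% of all genes that fell. Of 11 tested genes on the fast-twitch list 3 rose and none fell, beside 0.511% of all genes that rose. Of the 7 that were called, the study names all but Tnnt1, most of them from adult hearts of this experiment, so their direction is no independent evidence. Myh7b, a slow myosin heavy chain gene, was at 280, 190, 200 and 218 CPM in control sham and at 25.9, 43.5, 53.9 and 45.9 CPM in Trbp-cKO sham hearts. The log2 fold change was -2.39 ± 0.28 (adjusted p = 0.000869), or 5.25-fold lower. Tnnc1, the calcium-binding troponin C of heart and slow muscle, stood at 1860, 1860, 1790 and 1820 CPM in control sham hearts and at 497, 521, 596 and 570 CPM after deletion (-1.74 ± 0.16, adjusted p = 8.75e-05).

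Myl3, the ventricular essential light chain, was 2.78-fold lower, at 3720 to 3960 CPM in control sham and 1270 to 1470 CPM in Trbp-cKO sham hearts (-1.47 ± 0.31, adjusted p = 0.03). Tnnt1, slow skeletal troponin T, fell by 1.03 on the log2 scale (SE 0.22, adjusted p = 0.032). The calls of Myl3 and Tnnt1 were lost in each of the 8 fits that left out a sham heart, whereas those of Myh7b and Tnnc1 were kept. The other 13 members were not called. Among them Myh6, the main myosin of the adult mouse heart, had a log2 fold change of -0.20 (adjusted p = 0.867), Tnni3 -0.17, Tnnt2 0.20 and Myl2 -0.07. Sox6, a transcription factor that represses slow-muscle genes, was at 12.4 to 13.4 CPM in control sham and at 25.1, 31.0, 16.5 and 27.3 CPM in Trbp-cKO sham hearts. Its groups did not overlap, but the call was missed at 0.96 ± 0.32 (adjusted p = 0.168), and it was made without the 3 TAC hearts.

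Myh7b carries mir-499 between its exons, in the interval chr2:155622880-155622958 on the plus strand of GRCm38. The mature 5′ arm is printed because its host transcript fell further than any other sarcomere gene; capitals mark the seed, bases 2 to 8. The microRNA itself was not measured in these poly(A)-selected libraries.
mmu-miR-499-5p: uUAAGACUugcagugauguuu

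The 3 genes of the fast-twitch list that rose were Myl9, Tpm2 and Tnni2. Myl9, which the study counts as fast-twitch, is a regulatory light chain abundant in smooth muscle. Its level went from 22.5, 16.6, 24.9 and 25.1 CPM to 83.4, 55.9, 69.7 and 63.6 CPM (1.61 ± 0.26, adjusted p = 0.0075). Tpm2, β-tropomyosin, was 15.9 to 19.8 CPM in control sham and 28.5 to 39.4 CPM in Trbp-cKO sham hearts (0.96 ± 0.19, adjusted p = 0.0231), with the call kept in 1 of 8 leave-one-out fits. Tnni2, fast troponin I, rose by 1.53 ± 0.26 (adjusted p = 0.00899) but stayed low, at 2.03 to 2.86 CPM. Most of the classic fast genes did not follow: Mylpf, Tnnt3, Atp2a1 and Tnnc2 were all under 1 CPM on average in both groups, and none was called.

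Outside the sarcomere lists, Hopx fell and the cytochrome c oxidase genes Cox6a1 and Cox8a rose. Hopx, a homeodomain cofactor of heart development, was at 238, 231, 244 and 229 CPM in control sham and at 49.0, 56.6, 44.7 and 72.1 CPM in Trbp-cKO sham hearts (-2.08 ± 0.48, adjusted p = 0.0422). The groups did not overlap, but the call was lost in each leave-one-out fit. Cox6a1, the version of cytochrome c oxidase subunit 6A found in most tissues, rose from 72.6, 63.7, 62.2 and 71.1 CPM to 223, 171, 185 and 142 CPM (1.42 ± 0.13, adjusted p = 8.75e-05). Cox8a, the like version of subunit 8, rose by 0.85 ± 0.10 (adjusted p = 0.000698). Their muscle counterparts, looked up after these values had been seen, were not called: Cox6a2 had a log2 fold change of -0.07 ± 0.14 (adjusted p = 0.891) and Cox8b -0.05 ± 0.14 (adjusted p = 0.933). The pair Cox7a2 and Cox7a1, the general and the muscle version of subunit 7A, was not called either, at 0.49 ± 0.12 and -0.31 ± 0.17.

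Acta2, Dstn and Csrp2 also rose, the last 2 chosen after their values were seen. Acta2, smooth muscle α-actin, was 149 to 292 CPM in control sham and 389 to 611 CPM in Trbp-cKO sham hearts (1.18 ± 0.27, adjusted p = 0.0417), a call lost in each leave-one-out fit. Dstn, which severs actin filaments, rose by 0.91 ± 0.16 and Csrp2, a LIM protein of smooth muscle, by 0.93 ± 0.17. Of 11 smooth muscle and pericyte markers, Acta2 was the only one called, beside 0.967% of all genes, and the list's median was 0.20. Without Acta2 itself the summed level of that list overlapped between the groups, at 1240 to 1310 CPM in control sham and 1090 to 1370 CPM in Trbp-cKO sham hearts.

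**Figure D1:**
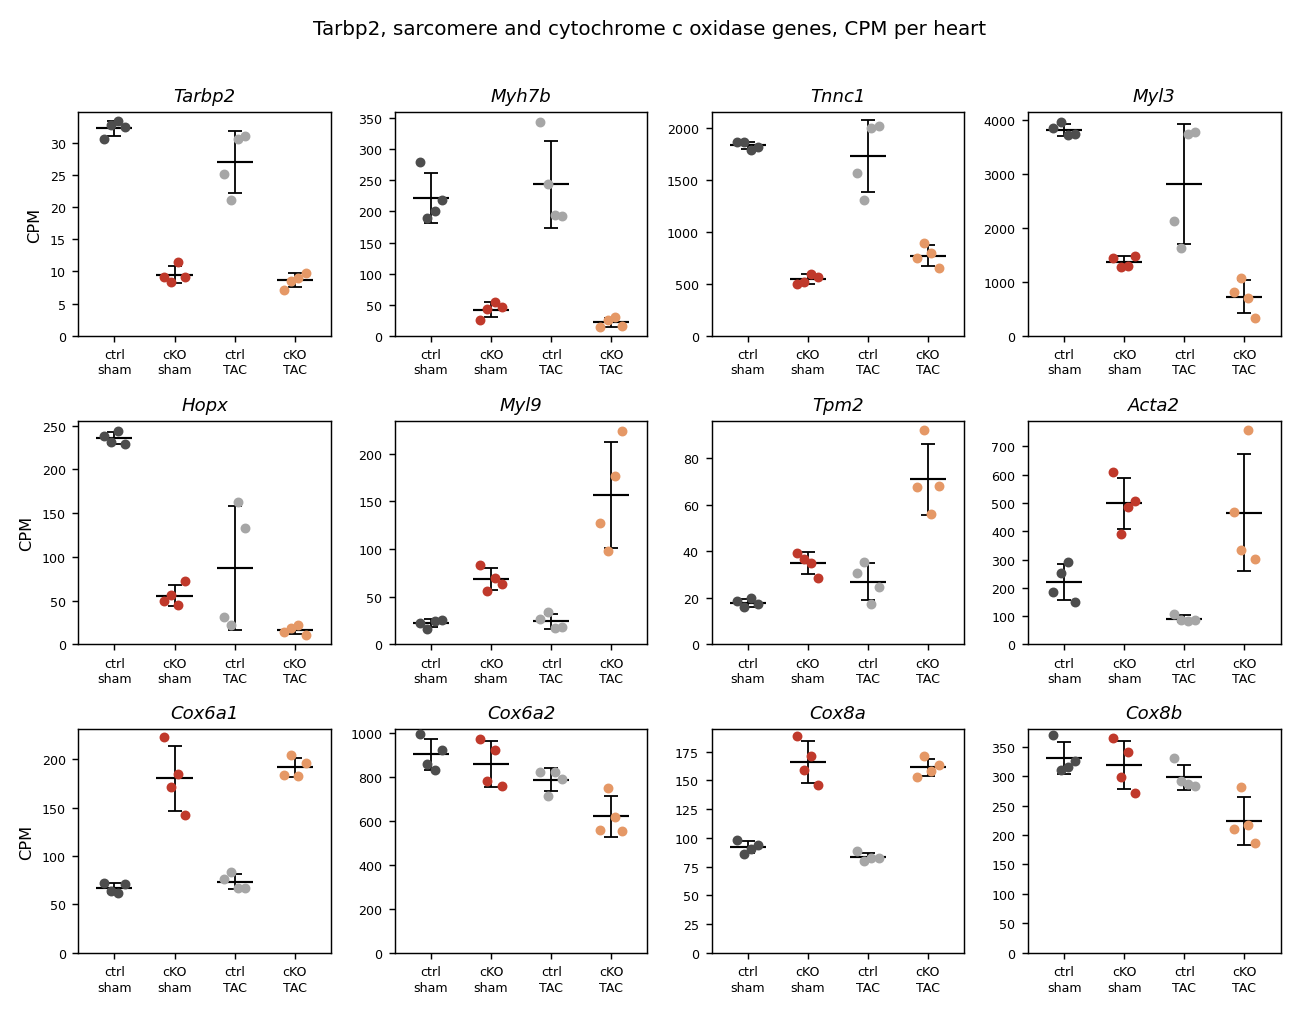
CPM of Tarbp2, sarcomere genes and cytochrome c oxidase isoforms in each heart, by group; points are hearts, horizontal lines are group means and vertical bars are SD (n = 4 per group). In sham hearts the groups do not overlap for Tarbp2, Myh7b, Tnnc1, Myl3, Hopx, Myl9, Tpm2, Acta2, Cox6a1 and Cox8a, whereas they overlap for Cox6a2 and Cox8b.

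The core clock differed between the sham groups in both of its limbs. Of 12 tested genes of the negative limb and the PAR bZIP output factors, 6 rose and none fell, and of 8 tested genes of the positive limb 2 fell and none rose. Beside the 0.967% of all genes called, that is 8 of 20 (9 without the 3 TAC hearts). Medians were 0.82 and -0.49. The positive limb list holds activators and genes that peak with Arntl, among them the repressors Nfil3 and Cry1. Dbp, which binds D-boxes and is among the steepest rhythmic transcripts of most tissues, was at 28.6, 21.1, 37.0 and 35.0 CPM in control sham and at 190, 169, 153 and 157 CPM in Trbp-cKO sham hearts. The lowest Trbp-cKO heart was thus far above the highest control (2.46 ± 0.29, adjusted p = 0.000793, 5.50-fold).

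Its relatives Tef and Hlf rose too. Tef was 84.8 to 98.2 CPM in control sham and 179 to 203 CPM in Trbp-cKO sham hearts (1.04 ± 0.20, adjusted p = 0.0199), and Hlf was 13.7 to 17.5 against 33.7 to 49.6 CPM (1.40 ± 0.27, adjusted p = 0.0172). Per3, a period repressor, was at 18.4, 17.3, 17.4 and 20.3 CPM against 47.5, 60.1, 62.7 and 53.5 CPM (1.61 ± 0.23, adjusted p = 0.00293). Ciart, which represses Arntl and Clock, rose by 1.47 ± 0.32 (adjusted p = 0.0312), and Bhlhe41, an E-box repressor, by 0.96 ± 0.15 (adjusted p = 0.00497). The calls of Dbp, Per3 and Bhlhe41 were kept in each leave-one-out fit, those of Hlf, Tef and Ciart in 3, 2 and 1 of 8.

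Arntl went the other way, from 16.2, 20.3, 17.2 and 12.5 CPM to 2.11, 2.62, 3.16 and 3.18 CPM (-2.57 ± 0.55, adjusted p = 0.0317), 5.95-fold lower. Though the sham groups were far apart, this call was lost in each leave-one-out fit; in TAC hearts, which share the estimate of spread, Arntl ran from 2.65 to 17.9 CPM. Nfil3, the repressor at D-boxes, was at 15.7, 20.6, 17.8 and 20.1 CPM against 5.61, 5.75, 6.19 and 5.15 CPM (-1.71 ± 0.20, adjusted p = 0.000793). Clock passed the adjusted p (0.00817) but not the fold threshold, at -0.67 ± 0.11. Npas2, which can stand in for Clock, was 3.68 to 6.09 against 1.69 to 2.18 CPM, with an adjusted p of 0.0973.

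Not every arm of the loop was called. Per1 was at 51.0 to 79.4 CPM in control sham and 65.8 to 75.1 CPM in Trbp-cKO sham hearts (0.13 ± 0.40, adjusted p = 0.939), and Per2 overlapped as well (0.68 ± 0.40, adjusted p = 0.504). Cry1 differed by -0.04 (adjusted p = 0.962). Nr1d1 lay higher in all 4 Trbp-cKO hearts without passing (0.49 ± 0.26, adjusted p = 0.43). Among 24 genes that follow the clock in heart and other tissues, 1 rose, Tspan4, a tetraspanin (1.16 ± 0.15, adjusted p = 0.00231), and 1 fell, Cdkn1a, which encodes the cell cycle inhibitor p21 (-1.65 ± 0.32, adjusted p = 0.0172). Their median was 0.07, and 0.967% of all genes were called.

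**Figure D2:**
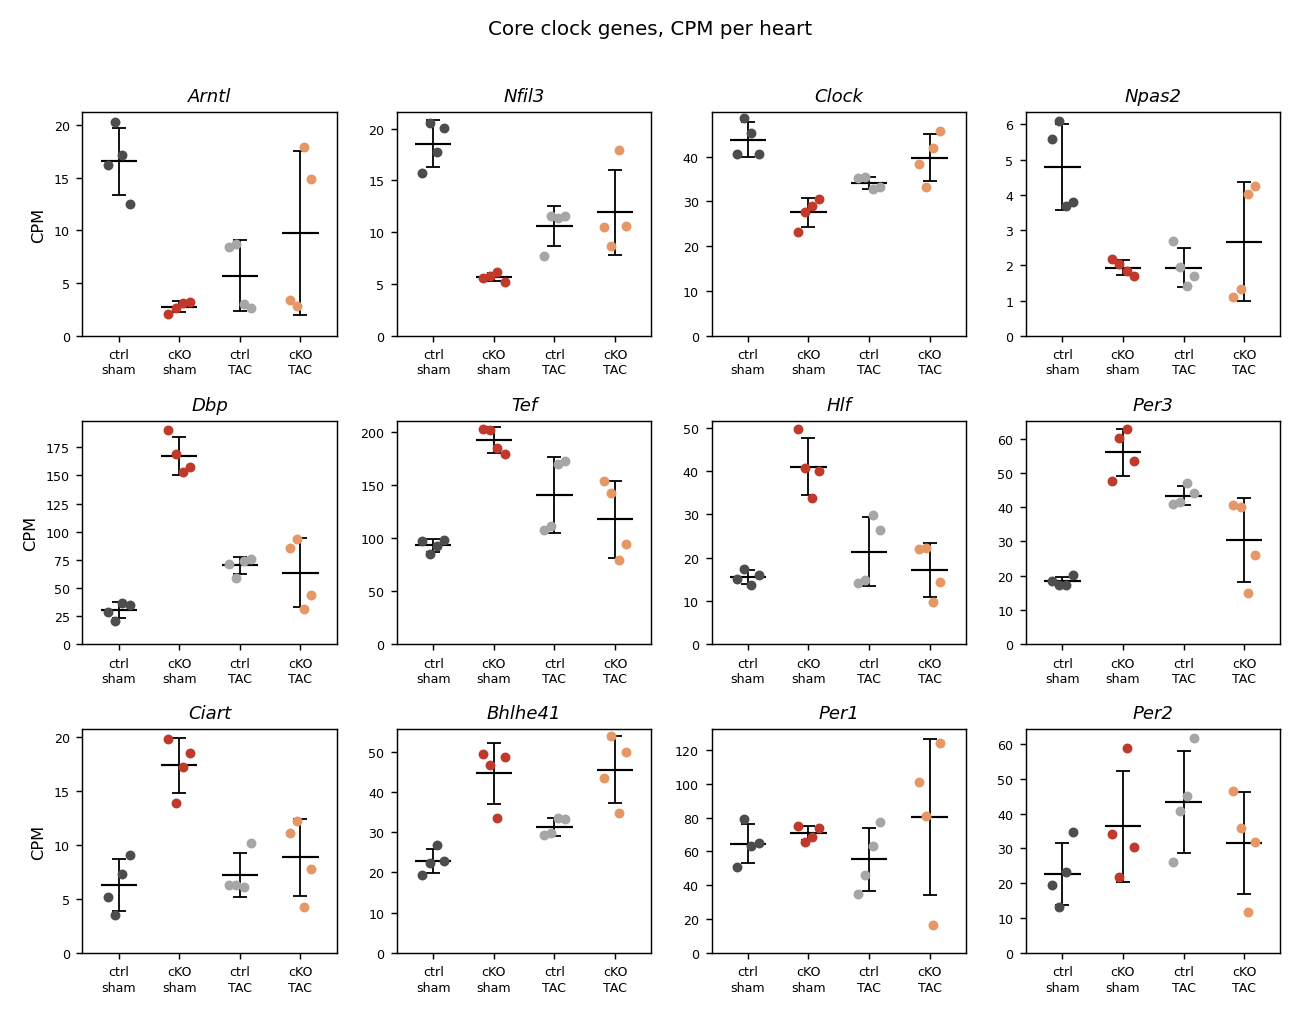
CPM of core clock genes in each heart, by group; points are hearts, lines are means and bars are SD (n = 4 per group). The 4 Trbp-cKO sham hearts lie above the 4 control sham hearts for Dbp, Tef, Hlf, Per3, Ciart and Bhlhe41 and below them for Arntl, Nfil3, Clock and Npas2, and overlap for Per1 and Per2.

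None of the 20 core clock genes was called in TAC hearts, although Per3 and Bhlhe40 had an unadjusted p under 0.05 there in the edgeR fit. Bhlhe41 passed the adjusted p in TAC hearts (0.0458) but not the fold threshold, at 0.54, in the same direction as in sham hearts. The medians were -0.02 for the negative limb and 0.14 for the positive limb. There Dbp was at 71.4, 59.1, 73.7 and 75.9 CPM in control and at 85.6, 93.2, 31.8 and 43.9 CPM in Trbp-cKO hearts (-0.14 ± 0.27, adjusted p = 0.808). The test of the difference between the effects gave -2.60 for Dbp (adjusted p = 0.00646), -2.12 for Per3 (0.00635), -1.30 for Tef (0.0442), -1.72 for Hlf (0.0416), 1.88 for Nfil3 (0.00635) and 3.35 for Arntl (0.0475). It was not passed for Ciart (adjusted p = 0.213) or Bhlhe41 (0.347). Leaving out the 3 TAC hearts that stood apart, the same 6 genes passed and the other 2 did not. Arntl was 8.46 and 8.75 CPM in control TAC replicates 1 and 2 but 3.00 and 2.65 CPM in replicates 3 and 4, and 3.39 and 2.79 CPM in Trbp-cKO TAC replicates 1 and 2 but 17.9 and 14.9 CPM in replicates 3 and 4.

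A clock score was formed for each heart as the mean log2 CPM of 9 negative limb and output genes minus that of 4 positive limb genes. The score was then centred and divided by its SD over the 16 hearts. In these SD units it ran from -1.60 to -0.79 in control sham and from 1.05 to 1.29 in Trbp-cKO sham hearts, and from -1.50 to 0.71 in TAC hearts. With this score as a covariate 2 genes were called, Tnnc1 (-2.0, adjusted p = 0.0457) and the antisense RNA D830005E20Rik (-1.89, adjusted p = 0.0457), beside 193 without it. The score separates the 8 sham hearts as the groups do, so in them the clock difference and the deletion cannot be told apart. Tarbp2 kept its size at -1.69 with an adjusted p of 0.068. Of the 193 genes, 189 kept their sign and 136 an unadjusted p under 0.05 in this edgeR fit. Among the clock genes, Tef, Ciart and Arntl changed sign.

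Promoter sequences were searched for letters bound by clock factors and heat shock factor, on both strands, from 250 bases before to 50 bases after each annotated start (RefSeq, GRCm38.p6). A match describes letters, not binding. All 8 clock genes that were called had a promoter in the table. The E-box CACGTG was found in 3 of them (Ciart, Bhlhe41 and Tef), against 10.9% of the 13080 tested genes with a promoter. It was in 11 of 75 genes that rose (14.7%), in 12 of 54 that fell (22.2%) and in 26.7% of the immediate early list. The ROR element TAGGTCA was found in 2, Arntl and Nfil3, against 2.31%. A D-box, TTATGTAA or TTACGTAA, was found in Per3, against 1.01% of genes. Hlf held the cAMP element TGACGTCA (3.20%), and the Dbp window held none of these. The E-box variant CACGTT was in none of the 8, against 6.17% of genes.

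The following promoters show how these letters are placed in 2 genes that rose and 2 that fell, with matches in capitals, written 5′ to 3′ on the gene's strand. Ciart (chr3:95882179-95882478, minus strand) has 3 E-boxes, whose first bases lie 116, 58 and 44 bases before the start. Per3 (chr4:151044616-151044915, minus strand) has 2 D-boxes, 205 and 158 bases before it. Arntl (chr7:113207261-113207560, plus strand, the second of 2 annotated starts) has its ROR element 31 bases into the transcript, and Nfil3 (chr13:52980990-52981289, minus strand) has its own, in reverse orientation, 12 bases before the start.
Ciart: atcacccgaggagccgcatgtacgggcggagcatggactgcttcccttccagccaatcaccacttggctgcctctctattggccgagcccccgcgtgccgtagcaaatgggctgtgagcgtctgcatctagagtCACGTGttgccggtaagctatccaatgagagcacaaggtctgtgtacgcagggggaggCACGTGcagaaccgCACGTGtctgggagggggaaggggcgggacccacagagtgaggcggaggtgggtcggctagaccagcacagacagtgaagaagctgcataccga
Per3: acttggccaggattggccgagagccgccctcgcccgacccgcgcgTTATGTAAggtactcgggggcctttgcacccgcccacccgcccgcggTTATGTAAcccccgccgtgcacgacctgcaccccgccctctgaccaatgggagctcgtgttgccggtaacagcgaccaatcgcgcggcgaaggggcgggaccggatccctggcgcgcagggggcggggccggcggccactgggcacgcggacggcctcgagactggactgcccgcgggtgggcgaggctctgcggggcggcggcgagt
Arntl: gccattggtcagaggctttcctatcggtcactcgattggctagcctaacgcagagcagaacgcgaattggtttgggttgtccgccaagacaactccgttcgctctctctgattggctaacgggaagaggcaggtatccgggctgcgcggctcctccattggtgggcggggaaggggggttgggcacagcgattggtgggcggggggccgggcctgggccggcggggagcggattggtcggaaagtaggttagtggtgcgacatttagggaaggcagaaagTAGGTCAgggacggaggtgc
Nfil3: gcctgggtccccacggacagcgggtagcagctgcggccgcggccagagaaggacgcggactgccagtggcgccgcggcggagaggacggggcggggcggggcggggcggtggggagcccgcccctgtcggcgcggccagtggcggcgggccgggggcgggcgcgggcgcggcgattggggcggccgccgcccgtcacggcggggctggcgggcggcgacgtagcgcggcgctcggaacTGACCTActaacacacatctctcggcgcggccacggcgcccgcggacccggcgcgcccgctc

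Immediate early genes were lower in Trbp-cKO sham hearts. Of 38 tested, 7 fell and none rose (beside 0.456% of all genes), 35 had a negative log2 fold change, and the median was -0.62. The 7 were Egr2, Egr3 and Nr4a3, transcription factors of the early response, Fosl2 of the AP-1 family, Myc, Socs3, a brake on cytokine signaling, and Ccn2 (CTGF), a matricellular growth factor. Egr2 was at 5.35, 38.2, 8.35 and 4.09 CPM in control sham and at 2.54, 3.55, 1.79 and 1.74 CPM in Trbp-cKO sham hearts (-2.54 ± 0.58, adjusted p = 0.0392). Nr4a3 was at 27.8, 72.7, 49.9 and 36.9 against 9.41, 8.66, 13.5 and 15.3 CPM (-2.0 ± 0.33, adjusted p = 0.00867). Fosl2 fell by 1.41 on the log2 scale (SE 0.30, adjusted p = 0.0317) and Socs3 by 1.43 (SE 0.32, adjusted p = 0.0377). The hearts overlapped for Egr3 alone of the 7, at 8.09 to 57.9 against 5.43 to 8.74 CPM (-2.03 ± 0.45, adjusted p = 0.0362).

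Control sham replicate 2 was the highest control for 25 of the 38 genes. In that heart Fos was at 83.8 CPM, against 18.5 to 19.3 CPM in the other controls, and Egr1 at 321 against 39.0 to 58.5 CPM. Neither was called: Fos had -1.05 ± 0.49 (adjusted p = 0.361) and Egr1 -1.41 ± 0.68 (adjusted p = 0.379). Without that heart 4 immediate early genes were called, and without others between 1 and 5. With only the 8 sham hearts in the fit 4 were called, and without the 3 TAC hearts 8. The call of Nr4a3 was kept in each leave-one-out fit, that of Ccn2 in 5 of 8 and those of the other 5 in 1 or 2. No value here bears on how the hearts were handled, and its part was not tested.

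Thbs1, which encodes the secreted matrix protein thrombospondin 1, had the largest fall of any gene the naming rule reached. It was at 243, 213, 262 and 55.0 CPM in control sham and at 18.2, 10.2, 11.7 and 10.3 CPM in Trbp-cKO sham hearts (-3.94 ± 0.53, adjusted p = 0.00247), 15.4-fold lower, and it was called in each leave-one-out fit. In TAC hearts it was 19.5 to 46.1 CPM in control and 42.2 to 166 CPM in Trbp-cKO. Errfi1, a feedback inhibitor of EGF receptors that glucocorticoids also induce, was at 85.9, 236, 147 and 71.4 against 36.8, 26.4, 34.6 and 29.2 CPM (-2.09 ± 0.40, adjusted p = 0.017), a call kept in 5 of 8 leave-one-out fits. It was 1 of 2 glucocorticoid-responsive genes that fell of 18, with Cdkn1a, beside 0.456% of all genes that fell. Of that list 15 were below 0, and the median was -0.51. At an unadjusted p under 0.05 in the edgeR fit 5 were lower, beside 1065 of the 19955 genes tested. The list's summed level was 1300 to 1420 CPM in control sham and 723 to 947 CPM in Trbp-cKO sham hearts. Fkbp5 and Tsc22d3, both induced by glucocorticoids in many tissues, were not called, at -0.71 (adjusted p = 0.462) and -0.08 (0.966).

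Cdkn1a, Ccn2 and Rcan1 fell in sham hearts and rose in TAC hearts. Ccn2 was at 194, 172, 192 and 131 CPM in control sham and 81.5, 60.6, 81.7 and 65.4 CPM in Trbp-cKO sham hearts (-1.25 ± 0.23, adjusted p = 0.0143). After TAC it was at 257, 360, 163 and 308 CPM in control and 1030, 721, 1090 and 1240 CPM in Trbp-cKO hearts (1.91 ± 0.24, adjusted p = 0.000334). The difference between the effects was 3.16 (adjusted p = 0.000604), and for Cdkn1a it was 2.98 (0.00635). Rcan1, a target and inhibitor of calcineurin, had -1.10 in sham and 0.90 in TAC hearts, with a difference of 2.01 (adjusted p = 0.0122), though its sham call was lost in each leave-one-out fit. The other genes called in opposite directions, looked at after their values were seen, rose in sham and fell in TAC hearts: Akap5, a kinase anchor (1.42 and -1.34), Cdh19, a cadherin (1.06 and -0.81), and the unclassified transcript 9430062P05Rik (1.85 and -1.40). The sham calls of Cdkn1a and Ccn2 were kept in 5 of 8 leave-one-out fits, that of Cdh19 in 4 and that of 9430062P05Rik in each. For Akap5 the sham call was lost in each of them, and without the 3 TAC hearts its TAC effect was -0.43 (adjusted p = 0.355), so that the opposite call was lost. The other 5 were called in opposite directions without those hearts too.

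Chaperone genes were lower as well. Of 22 heat shock genes, 6 fell and none rose, beside 0.456% of all genes that fell. A negative log2 fold change was found in 21. In 17 all Trbp-cKO hearts lay below all controls, beside 1389 of the 19955 genes tested. Hspa1b, inducible Hsp70, was at 67.8, 525, 307 and 626 CPM in control sham and at 40.0, 28.7, 24.2 and 12.9 CPM in Trbp-cKO sham hearts (-3.85 ± 0.85, adjusted p = 0.0332). The controls spread widely, and replicate 1 was the lowest control for 19 of the 22 genes. Hspa1a, its near copy, gave -3.70 ± 0.86 (adjusted p = 0.0422). Of their 75-base windows 55.8% and 54.2% are shared, so reads of the 2 genes may have been split between them.

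Hsp90aa1, the inducible Hsp90, was at 293, 414, 442 and 578 against 185, 202, 195 and 161 CPM (-1.22 ± 0.20, adjusted p = 0.00825). Its processed pseudogenes Gm12346 and Gm5844, which share 67.4% and 46.5% of their windows with it and other genes, fell too (-1.17 and -1.22), and their reads may be those of Hsp90aa1. Hsph1 (-1.80 ± 0.41), Dnaja1 (-1.25 ± 0.28) and Chordc1 (-0.95 ± 0.20), which work with Hsp70 and Hsp90, made up the 6. Hsp90aa1 was called in every leave-one-out fit, but the others were mostly lost, with 1 heat shock gene called in 7 of these 8 fits; without the 3 TAC hearts 7 were called. In TAC hearts the list's median was -0.04. The small chaperones Hspb1 (-0.60, adjusted p = 0.17) and Cryab (-0.03, adjusted p = 0.974) were not called in sham hearts.

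The heat shock element was searched as GAANNTTC, which reads the same on both strands. It was in the promoters of all 5 called heat shock genes that had one, in 11 of 17 on the whole list, and in 7.17% of all genes tested. Among genes that fell it was in 10 of 54 (18.5%), these 5 included, and among genes that rose in 0 of 75. Hspa1b (chr17:34959189-34959488, minus strand) and Hspa1a hold it at the same distance, 104 bases before the start. Chordc1 (chr9:18292017-18292316, plus strand) has 2 copies, the first spanning its start site. Both are printed to show the element in capitals at its distal and its proximal place.
Hspa1b: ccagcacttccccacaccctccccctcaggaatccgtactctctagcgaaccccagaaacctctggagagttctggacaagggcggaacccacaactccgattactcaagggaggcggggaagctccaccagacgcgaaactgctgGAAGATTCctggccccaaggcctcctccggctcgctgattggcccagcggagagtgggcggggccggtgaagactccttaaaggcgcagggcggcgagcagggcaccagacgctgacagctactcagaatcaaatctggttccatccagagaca
Chordc1: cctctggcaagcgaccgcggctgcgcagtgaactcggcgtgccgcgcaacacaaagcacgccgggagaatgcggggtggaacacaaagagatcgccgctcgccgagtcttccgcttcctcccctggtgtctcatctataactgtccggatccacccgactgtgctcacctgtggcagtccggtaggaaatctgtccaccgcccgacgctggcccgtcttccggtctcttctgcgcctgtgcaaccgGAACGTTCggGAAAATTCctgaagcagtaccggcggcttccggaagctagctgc

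Interferon-stimulated genes were higher in sign throughout, and 2 were called. All 25 tested had a positive log2 fold change and the median was 0.69. The 2 called, beside 0.511% of all genes that rose, were Ifit3 and Ifi27l2a. Ifit3, an antiviral RNA-binding protein, had 1.43 ± 0.34 (adjusted p = 0.0475) and Ifi27l2a 1.27 ± 0.30 (adjusted p = 0.048). An unadjusted p under 0.05 in the edgeR fit was reached by 15 of 25, beside 13.7% of all genes. Ifit3 was at 6.05, 2.72, 3.36 and 4.19 against 19.1, 7.09, 9.98 and 7.81 CPM, with 41.1% of its windows shared with Ifit3b. Summed over the list, the level was 220 to 314 CPM in control sham and 290 to 585 CPM in Trbp-cKO sham hearts, which overlap. Ddx60, an RNA helicase induced by interferon, rose by 1.54 ± 0.30 (adjusted p = 0.0172), a call kept in 4 of 8 leave-one-out fits. Among Trbp-cKO sham hearts, replicate 3, which stood apart, was the highest for 16 of the 25 genes and replicate 1 for 7. The call of Ifi27l2a was lost in each leave-one-out fit, and that of Ifit3 was kept in 1 of 8. In TAC hearts the list's median was -0.21.

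**Figure D3:**
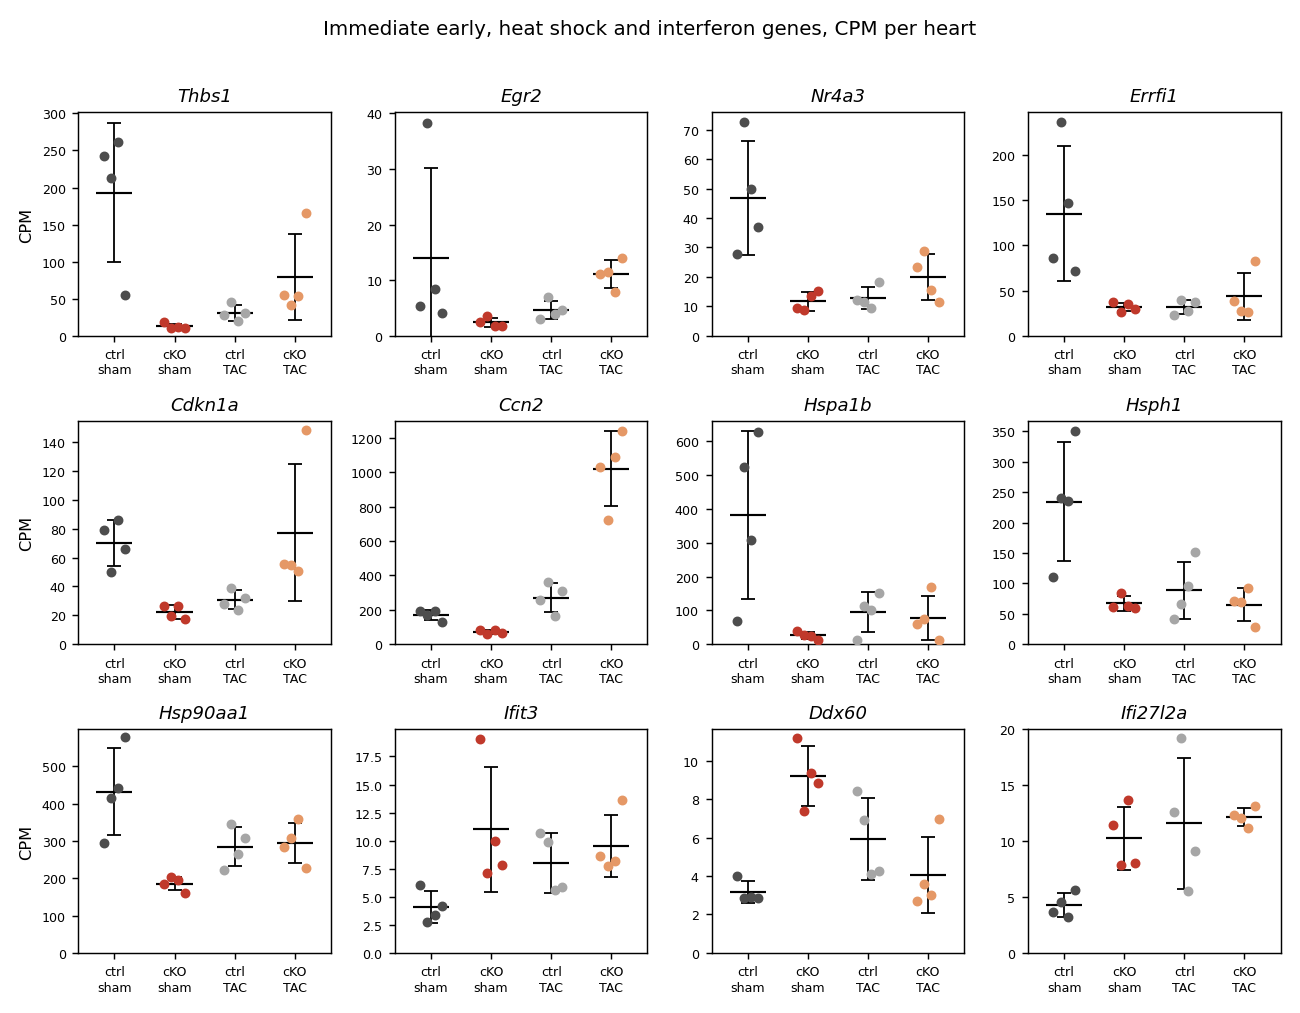
CPM of immediate early, heat shock and interferon genes in each heart, by group; points are hearts, lines are means and bars are SD (n = 4 per group). Control sham hearts are the high and variable group for Thbs1, Errfi1, Nr4a3, Hspa1b and Hsph1 among sham hearts, and the Trbp-cKO sham hearts lie above them for Ifit3, Ddx60 and Ifi27l2a.

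Matrix genes were scarcely called before any pressure overload. Of 39 fibrillar collagen and matrix genes none rose and 1, Thbs1, fell, beside 0.967% of all genes called. At an unadjusted p under 0.05 in the edgeR fit 11 lay higher and 4 lower, beside 1668 higher and 1065 lower of the 19955 genes tested. In 16 of the 39 all Trbp-cKO hearts lay above all controls and in 3 below, beside 1544 and 1389 of the 19955. The median was 0.19. Col1a1, Col1a2 and Col3a1, the main fibrillar collagens, were each higher in all 4 Trbp-cKO hearts, by 0.47, 0.48 and 0.46 on the log2 scale, with adjusted p of 0.317, 0.275 and 0.225. Postn, periostin of activated fibroblasts, was 34.6 to 42.8 against 62.8 to 86.4 CPM (0.88 ± 0.33, adjusted p = 0.231), and Ltbp2, which binds latent TGF-β complexes, 5.83 to 8.58 against 10.5 to 21.1 CPM (1.12 ± 0.36, adjusted p = 0.149). Both were called without the 3 TAC hearts. Col5a2 was 27.9 to 29.7 against 30.4 to 37.7 CPM, groups that did not overlap (0.22 ± 0.26, adjusted p = 0.799). Tgfb2 did not overlap either, at 10.7 to 14.3 against 14.6 to 16.1 CPM (0.29 ± 0.15, adjusted p = 0.429). For Tgfb2 the TAC effect was 1.39 and the difference 1.10 (adjusted p = 0.026).

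Among 12 fibroblast markers, Pi16 rose (0.99 ± 0.22, adjusted p = 0.032), beside 0.511% of all genes. Its call was kept in 1 of 8 leave-one-out fits. Lum passed the adjusted p below the fold threshold (0.74 ± 0.10, adjusted p = 0.00293). Of the 12, 11 lay above 0, with a median of 0.46. In 8 all Trbp-cKO hearts lay above all controls, beside 1544 of the 19955 genes tested. At an unadjusted p under 0.05 in the edgeR fit 8 were higher, beside 1668 of the 19955. The summed level of the 12 markers was 1870 to 2070 CPM in control sham and 2210 to 2890 CPM in Trbp-cKO sham hearts, with none of the markers at 0. Activated fibroblast markers, leaving out Acta2, summed to 72.1 to 91.0 against 110 to 161 CPM. Sums overlapped for endothelial (1500 to 1710 against 1420 to 2320 CPM) and macrophage markers (329 to 409 against 380 to 541 CPM). Adipocyte markers, of which 3 of 10 were tested, did not overlap (44.3 to 50.6 against 54.5 to 59.8 CPM). The part of such shifts in the collagen and matrix values was not tested. In 25 tested genes of TGF-β signaling 1 rose, Bmp4 (1.05 ± 0.18, adjusted p = 0.0106), and 1 fell, Ccn2, beside 0.967% of all genes called.

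Other programs held few or no calls. Of 18 genes of hypertrophy and wall stress, Rcan1 and Ccn2 fell and none rose, beside 0.456% of all genes that fell. Nppa, atrial natriuretic peptide, was at 597, 775, 1020 and 540 CPM in control sham and 1210, 1340, 1510 and 1010 CPM in Trbp-cKO sham hearts, which just overlap (0.79 ± 0.27, adjusted p = 0.163). Nppb, its ventricular relative, was 220 to 270 against 137 to 282 CPM (-0.40 ± 0.25, adjusted p = 0.535). No gene was called among 35 of fatty acid use, 33 of glucose use, 24 of calcium handling, 29 ion channels, 18 of NRF2 and oxidative stress, 17 of cholesterol and fatty acid synthesis, 19 of proliferation or 22 ATF4 targets. At an unadjusted p under 0.05 in the edgeR fit these lists held, in either direction, 4, 5, 2, 6, 5, 2, 2 and 3 genes. Of all genes tested, 13.7% passed that cut. Of 19 genes of the unfolded protein response none was called, but 18 were below 0, with a median of -0.30. Lower at an unadjusted p under 0.05 in the edgeR fit were 9, beside 1065 of the 19955 genes tested. Among 19 p53 targets only Cdkn1a was called, beside 0.967% of all genes.

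**Figure D4:**
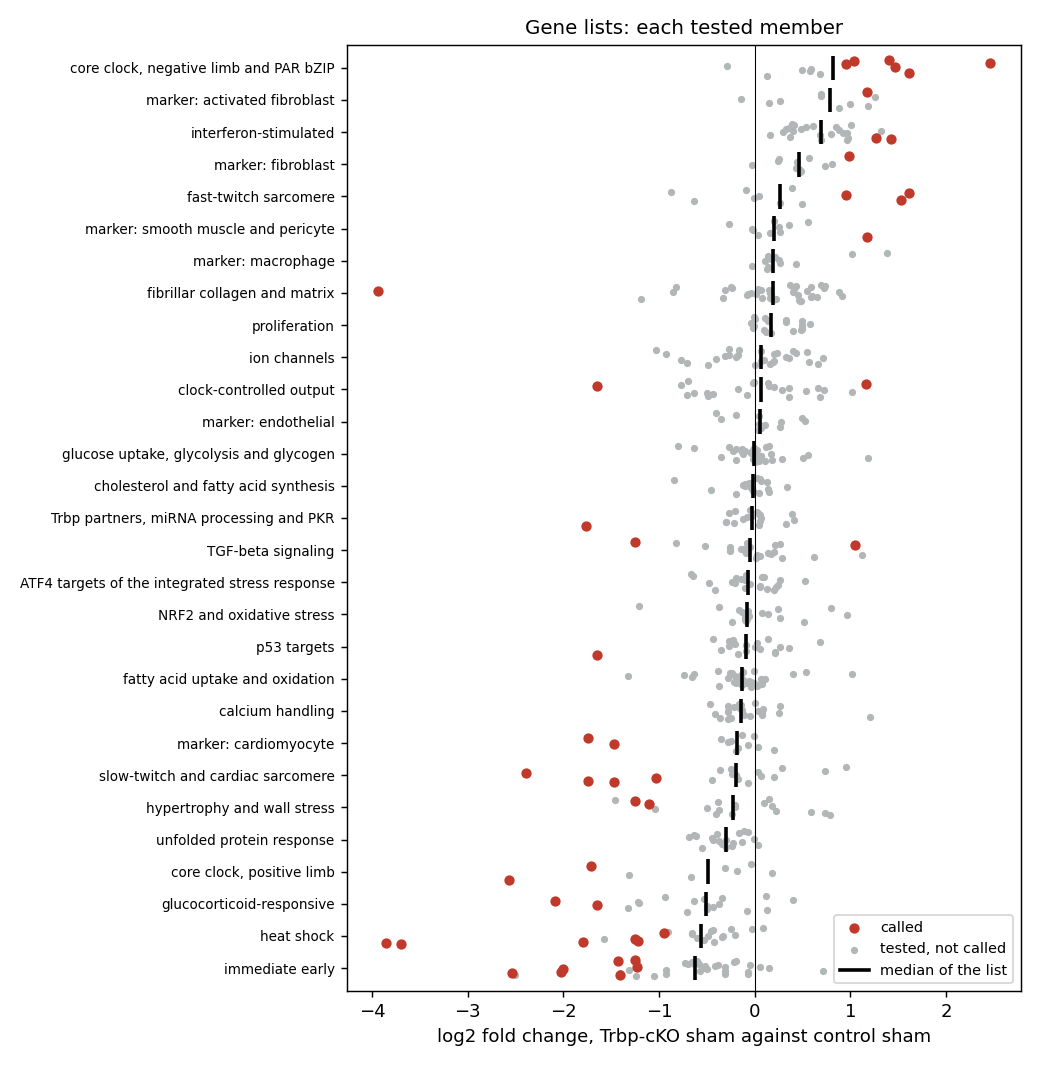
Log2 fold change between Trbp-cKO sham and control sham hearts for each tested member of the gene lists; red points were called, grey points were not, and black bars are list medians. The medians run from 0.82 for the negative limb of the clock to -0.62 for immediate early genes, with activated fibroblast markers next to the top at 0.79, and heat shock genes at -0.56, glucocorticoid-responsive genes at -0.51 and the positive limb of the clock at -0.49 next to the bottom.

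The largest rises by the naming rule were of mixed kind. That rule took called genes with a symbol, groups that did not overlap and a mean log2 CPM of 1 or more. Besides Dbp, Inmt, an indole methyltransferase, rose by 2.41 ± 0.48 (adjusted p = 0.0224), from 2.63 to 4.37 CPM in control sham to 33.0, 12.9, 13.5 and 9.18 CPM in Trbp-cKO sham hearts. Epor, the erythropoietin receptor, rose from 0.881 to 1.37 CPM to 3.09 to 5.66 CPM (2.06 ± 0.23, adjusted p = 0.000698). Also among the 15 largest by this rule were Shisa3 (1.94 ± 0.28), Fibin (1.84 ± 0.36), Htra4, a serine protease (1.70 ± 0.27), and Ccn5 (1.68 ± 0.40). Lrrc17 (1.54 ± 0.32), Gpnmb (1.44 ± 0.33) and C1qtnf6 (1.42 ± 0.19) were among them too. Outside the rule, Gm14320 (4.06) and Fbxl13 (2.91) rose further than any of these. The calls of Ccn5 and Gpnmb were lost in each leave-one-out fit, and those of Inmt, Fibin and Lrrc17 were kept in 4, 3 and 2 of 8. Further falls by that rule were Rhd, a Rhesus blood group gene, from 5.93 to 8.16 CPM to 1.70 to 2.83 CPM (-1.72 ± 0.26, adjusted p = 0.00493), and Bex1 (-1.69 ± 0.34, adjusted p = 0.0238), 16.4% of whose windows are shared with its relatives and whose call was kept in 3 of 8 leave-one-out fits. Erythroid markers summed to 1100 to 3170 CPM in control sham and 1510 to 2610 CPM in Trbp-cKO sham hearts.

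The TAC hearts, which share no animal with the sham hearts, allowed the same contrast to be measured again. Of the 102 genes that rose in sham hearts, 24 (23.5%) were also called higher in TAC hearts, where 1.55% of all genes were. Of the 91 that fell, 15 (16.5%) were also called lower, against 0.912%. These 39 are 20.2% of the sham calls and 7.94% of the 491 TAC calls. They include Tarbp2, Myh7b, Tnnc1, Myl3, Tnnt1 and Hopx among the falls, and Cox6a1, Cox8a, Myl9, Tpm2, Tnni2, Acta2, Dstn, Csrp2, Shisa3 and Gpnmb among the rises. Many had almost the same size in both settings: Tarbp2 -1.76 and -1.65, Cox6a1 1.42 and 1.38, Fxyd6, a regulator of the sodium pump, 0.90 and 0.92, Bex1 -1.69 and -1.69. Myh7b was at -2.39 in sham and -3.50 in TAC hearts, but the difference did not pass (adjusted p = 0.179), and for Acta2, at 1.18 and 2.35, it did not either (0.156).

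Of the rest, 148 were not called in TAC hearts and 6 were called there in the other direction. The median log2 fold change in TAC hearts was 0.25 for genes that rose in sham hearts and -0.15 for those that fell, beside 1.17 and -1.28 in sham hearts. The test of the difference passed for 47 of the 193, where 1.05% of all genes passed. Since the 193 were chosen on the sham contrast, which enters that test, the count is a description. These 47 held 6 of the 8 called clock genes, and also Thbs1, Nr4a3, Hsp90aa1, Epor, Ddx60, Egr2 and Errfi1. Without the 3 TAC hearts that stood apart, 40 of the 193 were called in the same direction in TAC hearts and 52 passed the test of the difference, 39 of them being among the 47. Egr2 (adjusted p = 0.134) and Errfi1 (0.105) no longer passed then, and Egr2 was the 1 gene of the 193 whose sham call was lost (adjusted p = 0.0528).

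**Figure D5:**
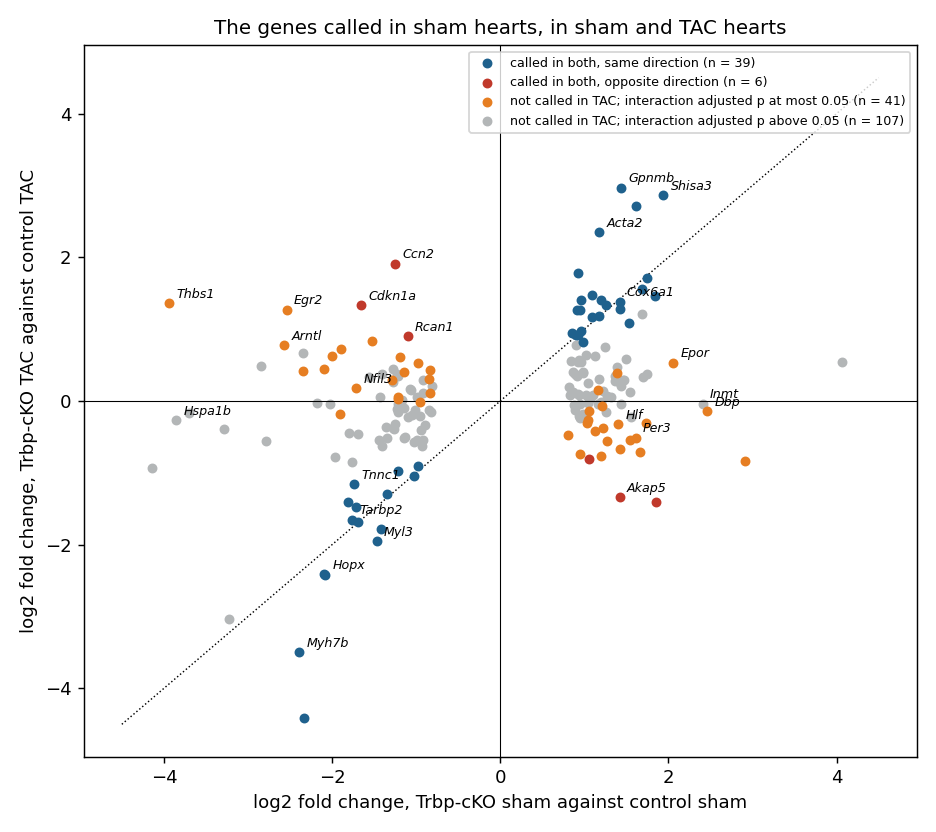
Log2 fold change of the 193 genes called in sham hearts, in sham (horizontal axis) and in TAC hearts (vertical axis); colors give the result in TAC hearts and the dotted line marks equal effects. Tarbp2, Tnnt1, Cox6a1 and Cox8a lie near the line and Myh7b, Myl9 and Acta2 beyond it, with larger effects in TAC hearts, whereas Dbp, Per3, Arntl, Thbs1 and Egr2 lie near or across the horizontal axis, and 6 genes were called in opposite directions.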

How the data were processed

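The submitters' processing notes name cutadapt 2.3, HISAT2 2.1.0, StringTie 1.3.4 and the GRCm38 build. The deposited values are whole-number counts per gene and heart, not normalized. Strand is not given in the sources used here, so a gene and its antisense partner cannot be told apart. Total counts per sham heart were 45166994 to 68274222, and the spread between hearts limits the precision. Of 55573 genes, 55480 were placed in GENCODE M21 (GRCm38), and edgeR's default filter on low counts left 19955.

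Counts were fitted with edgeR 4.0.16 in R 4.3.3, using TMM scaling and robust quasi-likelihood dispersions, over the 4 groups together. Contrasts were Trbp-cKO against control in sham hearts, the same in TAC hearts, and their difference. P-values were adjusted over all genes by the Benjamini-Hochberg method, and calls needed 0.05 or less and an absolute log2 fold change of 0.8 or more. CPM use TMM-adjusted library sizes. Named were Tarbp2, the 15 largest rises and 15 largest falls among called genes whose groups did not overlap (those with a symbol and a mean log2 CPM of 1 or more), genes the study names, and called members of lists; others are examples of list members or were chosen after their values were seen. Members and lists were chosen with earlier results of these data known. Cyr61, Ctgf and Zcchc11 were read as Ccn1, Ccn2 and Tut4. Sequences are RefSeq's (GRCm38.p6). The fit was tested on simulated data. Alternatives were other scaling, thresholds and filters, sham hearts alone, edgeR's exact test, DESeq2 1.42.0, halved counts, a replicate block, each sham heart left out, and clock and immediate early scores as covariates. Leaving out 3 TAC hearts was chosen after seeing the data.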

Additional observations from a re-analysis of the deposited data

Results flagged for a closer look

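The 62 named genes share the same 8 sham hearts, and many were chosen for groups that did not overlap. The count that follows is therefore a description. In 124 groups of 4 sham hearts, from these 62 genes, a single heart stood far from the other 3 in 5 (4.03%), beside 1 in 20 by chance were the groups independent. These were Shisa3 at 14.0 CPM in Trbp-cKO sham replicate 2, Ccn5 at 18.5 CPM in Trbp-cKO sham replicate 1, Ddx60 at 4.01 CPM in control sham replicate 1, Egr2 at 38.2 CPM in control sham replicate 2 and Hsph1 at 85.0 CPM in Trbp-cKO sham replicate 2.

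In 20 named genes the interaction of deletion and surgery passed an adjusted p of 0.05 in the edgeR fit. Genes called in sham hearts were chosen on a contrast that enters this test. On the log2 scale, TAC minus sham, the clock genes gave -2.60 for Dbp, -2.12 for Per3, -1.72 for Hlf, -1.30 for Tef, 3.35 for Arntl and 1.88 for Nfil3. Positive values were also found for Thbs1 at 5.30, Egr2 at 3.81, Ccn2 at 3.16, Cdkn1a at 2.98, Nr4a3 at 2.62, Errfi1 at 2.54, Rcan1 at 2.01, Nppb at 1.79, Hsp90aa1 at 1.27 and Tgfb2 at 1.10, while Ddx60 was at -2.08, Epor at -1.53, Bmp4 at -1.20 and Tspan4 at -1.01. Without the 3 TAC hearts that stood apart, Egr2, Errfi1 and Tspan4 (adjusted p = 0.134, 0.105 and 0.0659) no longer passed; Nppb and Tgfb2, not called in sham hearts, were not looked at there.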

How the results depend on the processing

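The fall of Tarbp2 was -1.86 to -1.70 when each sham heart was left out in turn, and -1.69 (adjusted p = 0.068) with the clock score and -1.73 (0.0636) with both scores in the edgeR fit; it was past the threshold under every other setting. The 193 calls became 336 with no threshold on the fold change, 429 with only the 8 sham hearts, 601 by edgeR's exact test, 380 by DESeq2, 88 with the immediate early score, 2 with the clock score, 2 with both, 490 without the 3 TAC hearts (an alternative added after seeing the data) and 74 to 130 leaving out single sham hearts, the fewest without Trbp-cKO sham replicate 2. Of the 193, 49 were called under all 17 settings other than the scores and fold thresholds, Tarbp2, Myh7b, Tnnc1, Cox6a1, Myl9, Dbp, Per3, Nfil3 and Thbs1 among them.

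Core clock calls, 8 before, numbered 4 with the immediate early score, 0 with the clock score or both, and 4 to 6 leaving out hearts. With the clock score or both, Ciart turned to -0.12 and -0.19, Arntl to 0.56 and 0.56, and Tef to -0.02 and -0.02; these scores are built partly from those genes. Immediate early calls, 7 before, numbered 4 with only the sham hearts, 3 without a filter, 0 with any score, and 1 to 5 leaving out hearts (1 without control sham replicate 3 or Trbp-cKO sham replicates 2 or 4). Heat shock calls, 6 before, numbered 2 without a filter, 1 with the immediate early score, 0 with the clock score or both, and 1 to 6 leaving out hearts. Genes called alike in TAC hearts, 39 before, numbered 78 with no fold threshold, 70 by DESeq2, 21 with the immediate early score, 1 with the clock score, 0 with both, 89 without the 3 TAC hearts and 19 to 29 leaving out sham hearts. Genes passing the interaction, 47 before, numbered 132 by DESeq2, 31 without a filter, 18, 0 and 1 with the immediate early score, the clock score and both, 86 without the 3 TAC hearts and 14 to 33 leaving out sham hearts. Other causes were not tested.

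The replicate numbers do not pair the hearts: deviations from the group means of same-numbered hearts correlated at 0.046, 0.078, -0.056 and -0.056. With the replicate number as a block, 107 genes were called, 105 of them among the 193, with 4 core clock, 4 immediate early and 1 heat shock gene, 25 called alike in TAC hearts and 18 passing the interaction. For the 61 named genes other than Tarbp2, over the 20 alternatives other than the fold thresholds, 818 values kept their side of the threshold, 386 lost it, 10 gained it (Ltbp2, Postn and Sox6) and 6 changed sign. With 4 hearts a group, 1 heart can decide a call, while halving the counts gave 205 calls.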

Other observations

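The following genes outside the lists were picked after their values were seen. Osr1, a transcription factor of fibroblast progenitors, rose by 1.73 on the log2 scale, Dact1, a Wnt modulator, by 1.39, Gdf10, a TGF-β family ligand, by 1.42, Rspo3, a Wnt agonist, by 1.44 and Podn, a matrix proteoglycan, by 1.17. Osr1, Dact1 and Gdf10 differed between sham and TAC hearts at an adjusted p of at most 0.05, with TAC effects of -0.31, 0.39 and -0.67. Without the 3 TAC hearts that stood apart Dact1 no longer passed, at a TAC effect of 0.61 and an adjusted p of 0.0736. In the leave-one-out fits, which kept all TAC hearts, the sham call of Gdf10 was lost each time. That of Rspo3, at under 1 CPM, was kept in 1 of 8. Tcap, a protein of the sarcomere's Z-disc, was at 533 to 646 CPM in control sham and 1150 to 1310 CPM in Trbp-cKO sham hearts (1.06 ± 0.22, adjusted p = 0.0265), with 0.05 in TAC hearts and a difference of -1.01 (adjusted p = 0.132). Without those 3 TAC hearts the TAC effect of Tcap was -0.46 and the difference -1.52 (adjusted p = 0.000504). With all TAC hearts kept, its sham call was lost in each leave-one-out fit. Of the 193 called genes 21 were non-coding RNAs, 7 pseudogenes and 8 unclassified transcripts. AC167363.2 overlaps the exons of Cdkn1a on the other strand and fell with it (-2.34 beside -1.65; kept in 1 of 8 leave-one-out fits), and its reads cannot be told from those of Cdkn1a. Lrrc17 and Fbxl13, which share exonic bases on opposite strands, both rose (1.54 and 2.91).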
